A study of Homo sapiens with 6 samples.

Results

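The CTD phosphatase-like genes described here were CTDSP1, CTDSP2, CTDSPL, CTDSPL2, CTDNEP1 and CTDP1, 6 of the 58288 genes in a table of read counts from T24, a cell line from a human bladder cancer. CTDSP1 was chosen by its fall under si-circ235-1, in these same libraries, and because a microRNA lies in it. The other 5 members were listed with it as relatives of the same enzyme family. The T24 cells had been transfected with a control siRNA (NC), with si-circ235-1 or with si-circ235-2, and each condition had 2 libraries that the labels call biological replicates. Both siRNAs were designed against circ235, a circular RNA made from exons of CCNY, and all 6 libraries came from this 1 line with no other treatment named in the labels. RNA was enriched with oligo dT beads, so neither the circle nor the microRNAs were measured. Total counts were 17152017 and 15855386 for NC, 15588108 and 19912893 for si-circ235-1, and 15373992 and 17562690 for si-circ235-2. All 6 members passed the filter on low counts, as did 14415 genes in total. Levels are given as CPM, a gene's counts scaled to library size after the TMM correction for library composition, and a gene is said to be called where edgeR's quasi-likelihood test gave a Benjamini-Hochberg adjusted p under 0.05.

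The carboxy-terminal domain (CTD) of the largest subunit of RNA polymerase II is a tail of short repeats whose serines are phosphorylated and dephosphorylated as the enzyme starts, elongates and is recycled. CTDP1, also known as FCP1, removes CTD phosphates together with the initiation factor TFIIF. CTDSP1, CTDSP2 and CTDSPL encode small phosphatases with the same catalytic fold, which act on the CTD, assist the repressor REST in keeping neuronal genes silent outside neurons, and dephosphorylate SMAD proteins. CTDSPL2 is a related phosphatase that is less well described. CTDNEP1 sits in the nuclear envelope with its partner CNEP1R1 and activates lipins, enzymes that set the supply of lipids for membranes.

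CTDSP1, CTDSP2 and CTDSPL also share a feature that the choice of members used only for CTDSP1. Each holds a hairpin of the miR-26 family in an intron, on its own strand. CTDSP1 (ENSG00000144579.7) lies at chr2:218398256-218405941 on the plus strand of GRCh38, and MIR26B lies in intron 4 of 6 of its transcript CTDSP1-201, at chr2:218402646-218402722. CTDSP2 (ENSG00000175215.10) lies at chr12:57819927-57846739 on the minus strand, and MIR26A2 lies in intron 5 of 7 of CTDSP2-201, at chr12:57824609-57824692. CTDSPL (ENSG00000144677.14) lies at chr3:37861960-37984469 on the plus strand, and MIR26A1 lies in intron 5 of 7 of CTDSPL-201, at chr3:37969404-37969480. The other 3 members hold no miR-26 hairpin. CTDSPL2 (ENSG00000137770.13) lies at chr15:44427234-44529038 on the plus strand, CTDNEP1 (ENSG00000175826.11) at chr17:7243591-7252491 on the minus strand and CTDP1 (ENSG00000060069.16) at chr18:79679801-79756623 on the plus strand. The mature miR-26 sequences are shown because they tie the hosts together, with that of miR-330-5p, the microRNA that the study placed downstream of circ235. They are taken from RefSeq's entries on GRCh38, with the seed (bases 2 to 8) in capitals.
hsa-miR-26b-5p: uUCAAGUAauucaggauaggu
hsa-miR-26a-5p: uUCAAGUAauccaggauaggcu
hsa-miR-330-5p: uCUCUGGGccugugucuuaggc
MIR26A1 and MIR26A2 give the same miR-26a-5p. Counted from the 5′ end, miR-26a-5p and miR-26b-5p differ within their shared length by C11U and C21U, outside the seed, which is the same in both. The hairpin genes themselves had no count in any library, with the exception of 1 count of MIR26A2 in replicate 2 of si-circ235-2, and such counts do not measure a microRNA.

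**Figure D1:**
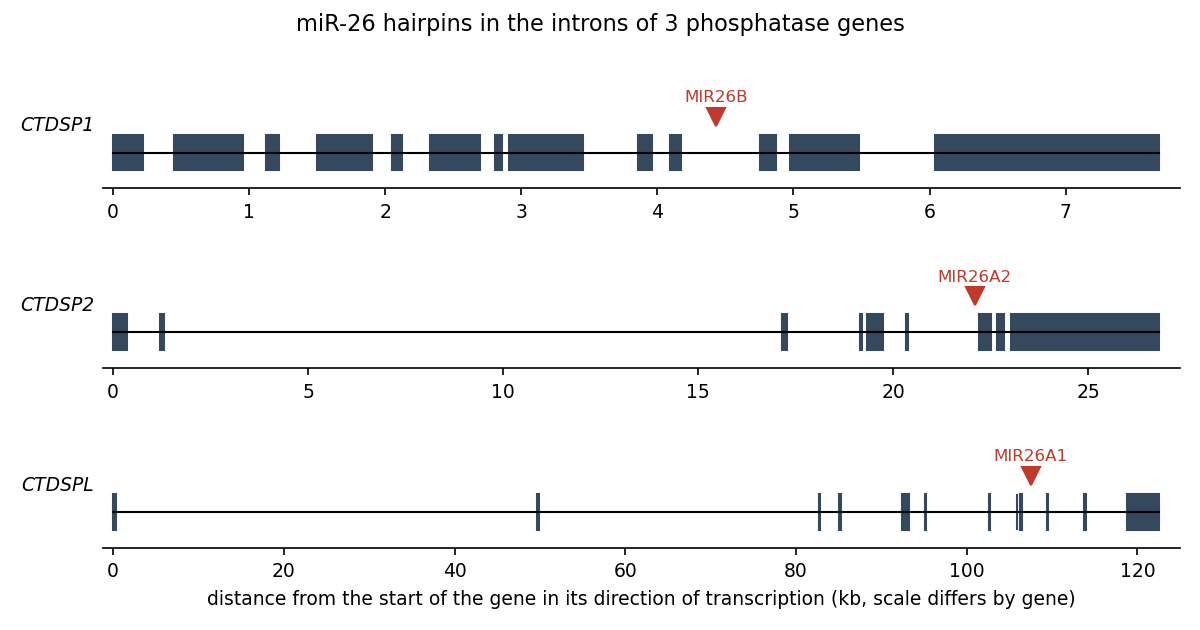
Maps of CTDSP1, CTDSP2 and CTDSPL, with the distance from the start of each gene in kb on the horizontal axis and the exons of all annotated transcripts merged as boxes. The triangles mark MIR26B, MIR26A2 and MIR26A1, which lie 4390, 22047 and 107444 bases from the start of their host, each between exons.

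The 3′ untranslated regions (UTRs) of the members were searched for the 7 bases that pair with each seed. The word TACTTGA, for miR-26, occurred in none of the 6 members, while 13.8% of the 12146 tested genes with an annotated UTR held it. Among genes with a UTR of 0.8 to 1.25 times the member's length, that share ran from 4.98% for CTDNEP1 (594 bases) to 32.1% for CTDSPL2 (4864 bases). The word CCCAGAG, for miR-330-5p, occurred in CTDSP1, CTDSPL2 and, at 2 places, in CTDSP2, and in 20.5% of all genes. CTDSPL, CTDNEP1 and CTDP1 had none. Over genes matched on length in the same way, the share with CCCAGAG was 20.7% for CTDSP1 (1516 bases), 33.9% for CTDSP2 (3675 bases) and 39.6% for CTDSPL2. The search used the strand of the transcript. A match is a description of the letters and was not tested as a site. Each match is printed with 10 bases on either side and the matching word in capitals, because the words are the link in sequence between members and the study's microRNA.
CTDSP1 at chr2:218405808-218405834, plus strand: gctcccctccCCCAGAGcgggtgggcg
CTDSP2 at chr12:57823402-57823428, minus strand: accaatgataCCCAGAGctacctgccg
CTDSP2 at chr12:57821207-57821233, minus strand: tcccacttgcCCCAGAGaagctactcg
CTDSPL2 at chr15:44528081-44528107, plus strand: aaattacttgCCCAGAGgcaagagttc

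Levels between genes were compared per kilobase of the longest transcript. In NC, CTDSP1 was the highest of the 6 at 51.4 ± 11.5 CPM per kb (SD, n = 2), above 90.5% of tested genes. CTDNEP1 followed at 34.4 ± 6.01, then CTDSPL at 18.2 ± 1.43 and CTDSP2 at 12.7 ± 2.58 CPM per kb. CTDP1, at 6.96 ± 1.22, and CTDSPL2, at 2.62 ± 0.73, were the lowest, and CTDSPL2 exceeded only 38.4% of tested genes. The NC libraries of neighbours in this order did not overlap, but the order itself depended on the length used. With the median length of each gene's transcripts, CTDSPL (106 CPM per kb) stood above CTDNEP1 (68.5) and CTDSP2 (64.3), and CTDSPL2 (24.1) above CTDP1 (16.4), with CTDSP1 still highest at 155.

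Under si-circ235-1 the order changed. Per kilobase of the longest transcript CTDNEP1 was then highest at 30.9 ± 2.65 CPM per kb, and CTDSP1, at 17.9 ± 1.16, lay beside CTDSPL at 19.2 ± 2.84, with overlapping libraries. With the median transcript length, CTDSPL (112 ± 16.5), CTDSP2 (71.9 ± 10.7) and CTDNEP1 (61.6 ± 5.27) all stood above CTDSP1 (53.8 ± 3.50). CTDSP1 made up 40.4% ± 4.63 of the summed level of the 6 members per kb in NC, 19.5% ± 0.63 for si-circ235-1 and 32.2% ± 0.59 for si-circ235-2. CTDSP2 made up 10.2% ± 3.17, 15.4% ± 1.80 and 20.9% ± 0.62. These shares used the longest transcript. With the median transcript length, the means of CTDSP2 (106 ± 1.80) and CTDSPL (100.5 ± 2.75) stood above CTDSP1 (96.6 ± 2.74) under si-circ235-2. The summed level itself was 136 and 116 CPM per kb in the NC libraries, 93.6 and 89.4 with si-circ235-1, and 103 and 96.5 with si-circ235-2. Because a share depends on every member, these shares carry the fall by which CTDSP1 was selected and are a description.

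Counted over the members, edgeR called 0 of the 5 members other than CTDSP1 in si-circ235-1 against NC, where it called 2.24% of tested genes higher and 3.64% lower. DESeq2 also called 0 of them there, and 0 had an unadjusted p under 0.05. Among the 6 members, libraries of the 2 conditions did not overlap for CTDSP1 alone, the member chosen by that fall, while they did not overlap for 55% of tested genes. In si-circ235-2 against NC, 1 of the 5 was called higher (CTDSP2) and 1 lower (CTDNEP1), beside 15.7% higher and 15.7% lower among all genes. Groups did not overlap there for CTDSP1, CTDSP2 and CTDNEP1, 3 of 6 members, and for 71.4% of tested genes. With 5 or 6 members, these counts are a description and nothing is read from them about the family.

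CTDSP1 had 157 and 114 CPM in the NC libraries (2394 and 1867 counts). It had 49.4 and 45.1 CPM under si-circ235-1 (706 and 807 counts) and 86.4 and 83.0 CPM under si-circ235-2 (1464 and 1736 counts). Both si-circ235-1 libraries were the lowest, the si-circ235-2 libraries lay between, and no library of one condition reached into another. The log2 fold change was -1.52 (standard error 0.20), or 0.348-fold, in si-circ235-1 against NC. Between the siRNAs it was 0.84 (0.20), higher with si-circ235-2. Both values rest on the libraries by which CTDSP1 was chosen, so no p is given for them. Against NC, the value lay between -1.70 and -1.17 over 12 alternatives in processing, the last once a smooth dependence on the length and GC content of transcripts was taken out of each library (the length and GC trend). In these bulk counts, fewer transcripts in every cell and fewer cells that hold the transcript cannot be told apart.

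In si-circ235-2 against NC, CTDSP1 fell by 0.68 on the log2 scale (standard error 0.20, adjusted p = 0.0244 from edgeR). This comparison shares its NC libraries with the choice of CTDSP1. Its p is not independent of that choice, and the value is a description. The value was -0.20 (adjusted p = 0.318 from edgeR) after removal of the length and GC trend, -0.41 (0.112) without TMM factors and -0.44 (0.220) without replicate 1 of NC, the higher NC library. Without replicate 1 or replicate 2 of si-circ235-2 the value was about as large, at -0.71 and -0.65, with adjusted p = 0.0636 and 0.0967 from edgeR. The longest transcript of CTDSP1 has 2638 bases and 61.7% GC, beside medians of 3354 bases and 48.4% over tested genes. AC021016.3, on the opposite strand, shares 468 exon bases with CTDSP1 and had 0 counts in every library. The part of shared reads in the value of CTDSP1 was not tested.

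**Figure D2:**
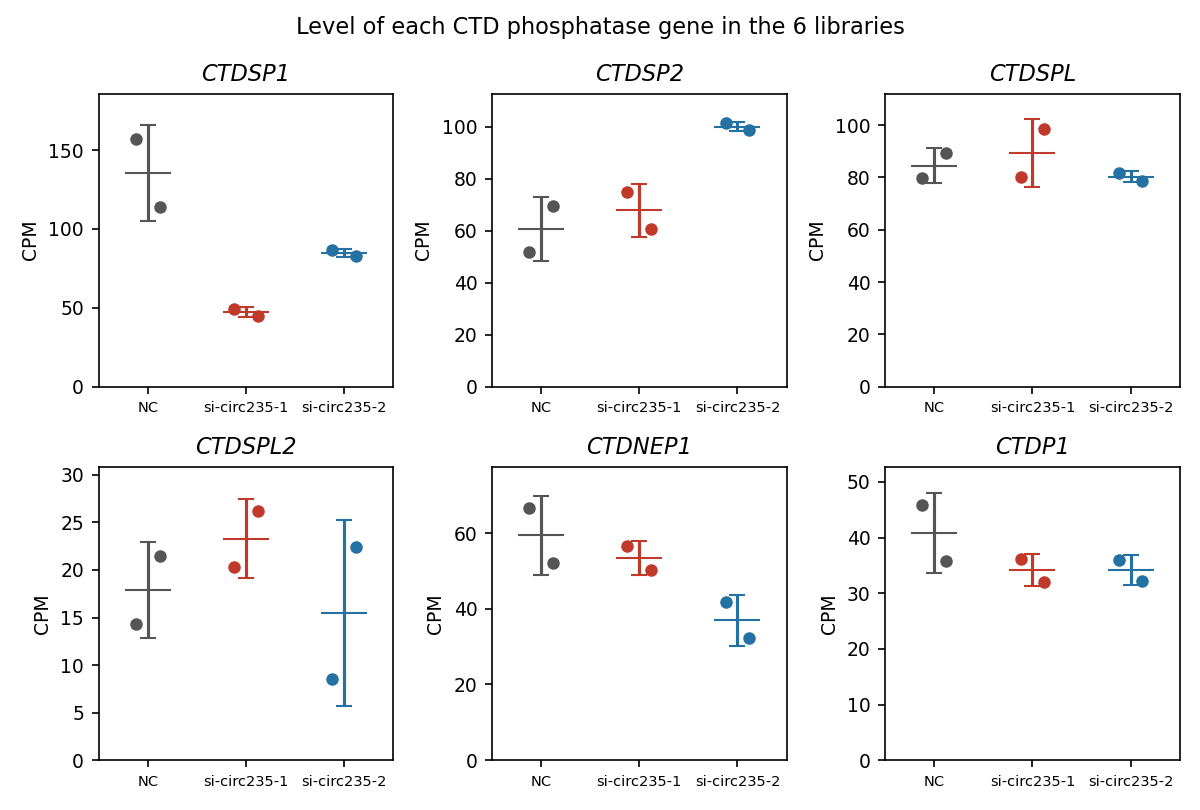
Level of each member in CPM after TMM scaling (vertical axis, from 0) in each library of NC, si-circ235-1 and si-circ235-2. Points are libraries, and the horizontal line and bar are the mean and SD of 2 libraries. CTDSP1 is lowest at 49.4 and 45.1 CPM with si-circ235-1, while CTDSP2 is highest and CTDNEP1 lowest with si-circ235-2.

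CTDSP2, another small phosphatase and the host of MIR26A2, went the other way under si-circ235-2. It had 52.0 and 69.4 CPM in NC, 75.0 and 60.7 with si-circ235-1, and 101 and 98.9 with si-circ235-2. The si-circ235-2 libraries were above all others, whereas those of NC and si-circ235-1 overlapped. CTDSP2 rose 1.65-fold in si-circ235-2 against NC (log2 fold change 0.72, standard error 0.20, adjusted p = 0.0213 from edgeR). In si-circ235-1 against NC its log2 fold change was 0.16 (0.20, adjusted p = 0.674 from edgeR). With si-circ235-2 it was no longer called after removal of the length and GC trend (0.36, adjusted p = 0.0985 from edgeR), without replicate 1 of NC (0.52, adjusted p = 0.189) and without replicate 1 of si-circ235-2 (0.70, adjusted p = 0.0535).

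CTDSPL, the third small phosphatase and the host of MIR26A1, had 79.8 and 89.2 CPM in NC, 80.02 and 98.6 with si-circ235-1, and 81.8 and 78.7 with si-circ235-2. All 3 conditions overlapped. Its log2 fold change was 0.08 (0.18, adjusted p = 0.826) with si-circ235-1 and -0.07 (0.18, adjusted p = 0.792 from edgeR) with si-circ235-2. Removal of the length and GC trend moved the latter to -0.63 (adjusted p = 0.0185 from edgeR), the 1 setting in which CTDSPL was called against NC.

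CTDSPL2 had the lowest CPM of the 6 members in every condition, and the largest SD relative to its mean. It had 14.4 and 21.4 CPM in NC, 20.4 and 26.2 with si-circ235-1, and 8.56 and 22.4 with si-circ235-2. The libraries of si-circ235-2 differed more from each other than from either NC library. Its log2 fold change was 0.38 (0.39, adjusted p = 0.586) with si-circ235-1 and -0.21 (0.39, adjusted p = 0.722 from edgeR) with si-circ235-2. Without replicate 2 of si-circ235-2 the latter became -1.07 (adjusted p = 0.0184 from edgeR), and without replicate 1 it became 0.32. EIF3J-DT, which shares 283 exon bases with CTDSPL2, had 7.38 ± 0.41 CPM in NC, 4.06 ± 0.89 for si-circ235-1 and 4.88 ± 1.28 for si-circ235-2. It was not called in either comparison (adjusted p = 0.116 and 0.152 from edgeR).

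CTDNEP1, the phosphatase of the nuclear envelope, had 66.7 and 52.1 CPM in NC, 56.6 and 50.1 with si-circ235-1, and 41.7 and 32.2 with si-circ235-2. The si-circ235-2 libraries were below all others, and NC and si-circ235-1 overlapped. CTDNEP1 fell to 0.622-fold in si-circ235-2 against NC (log2 fold change -0.68, standard error 0.21, adjusted p = 0.0313 from edgeR), and its log2 fold change with si-circ235-1 was -0.15 (0.21, adjusted p = 0.696). CTDNEP1 was no longer called without TMM factors (-0.42, adjusted p = 0.138 from edgeR), after removal of the length and GC trend (-0.21, adjusted p = 0.260), without replicate 1 of NC (-0.50, adjusted p = 0.238) and without replicate 2 of si-circ235-2 (-0.51, adjusted p = 0.188). ELP5, on the opposite strand, shares 294 exon bases with CTDNEP1, and the counting kept no strand. ELP5 had 57.7 ± 2.48 CPM in NC, 49.5 ± 0.58 for si-circ235-1 and 47.2 ± 4.69 for si-circ235-2. It was not called (adjusted p = 0.493 and 0.249 from edgeR). The part of shared reads in the value of CTDNEP1 was not tested.

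CTDP1, the CTD phosphatase that works with TFIIF, had 45.9 and 35.8 CPM in NC, 36.2 and 32.1 with si-circ235-1, and 36.1 and 32.3 with si-circ235-2. The conditions overlapped. Its log2 fold change was -0.26 (0.21) in both comparisons with NC, with adjusted p = 0.480 for si-circ235-1 and 0.370 for si-circ235-2 from edgeR. Between the siRNAs it was -0.00 (0.21).

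**Figure D3:**
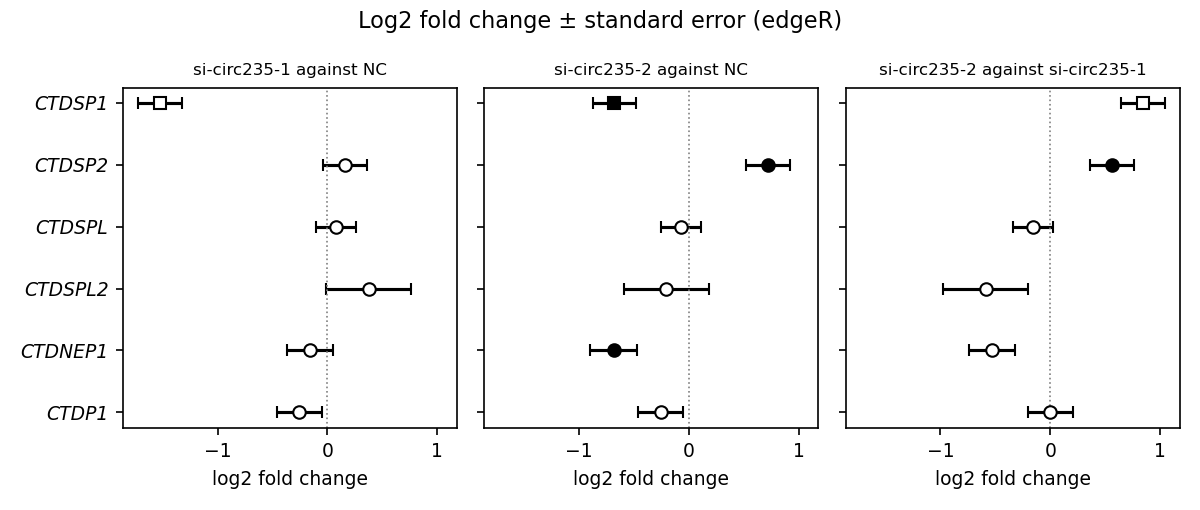
Log2 fold change of each member (horizontal axis) with its standard error from edgeR in the 3 comparisons. Filled symbols are called. Squares are CTDSP1, which is unfilled where no p is given because it was chosen by its value. Its filled square, in si-circ235-2 against NC, rests on NC libraries that also served to choose it and is a description. In si-circ235-2 against NC, CTDSP1 (-0.68) and CTDNEP1 (-0.68) lie to the left and CTDSP2 (0.72) to the right.

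The siRNAs were also compared directly. In si-circ235-2 against si-circ235-1, CTDSP2 was higher by 0.56 on the log2 scale (standard error 0.20, adjusted p = 0.0461 from edgeR). It was the 1 member of 5 called, beside 21.1% of tested genes higher and 18.6% lower, and groups did not overlap for CTDSP1, CTDSP2 and CTDNEP1 and for 72.1% of tested genes. The value of CTDSP2 fell to 0.04 (adjusted p = 0.846 from edgeR) after removal of the length and GC trend, and the call was also lost with DESeq2 (0.53, adjusted p = 0.0572) and without any 1 of the 4 libraries compared (0.41 to 0.72, adjusted p from 0.0597 to 0.263). CTDNEP1 had -0.53 (0.21, adjusted p = 0.0679 from edgeR), CTDSPL2 -0.58 (0.39, adjusted p = 0.251) and CTDSPL -0.15 (0.18, adjusted p = 0.529). CTDSPL was called lower after removal of the length and GC trend (-0.76, adjusted p = 0.00449 from edgeR), and CTDNEP1 without replicate 1 of si-circ235-2 (-0.73, adjusted p = 0.0451). Without replicate 2 of si-circ235-2, CTDSPL2 stood at -1.44 (adjusted p = 0.00148 from edgeR).

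**Figure D4:**
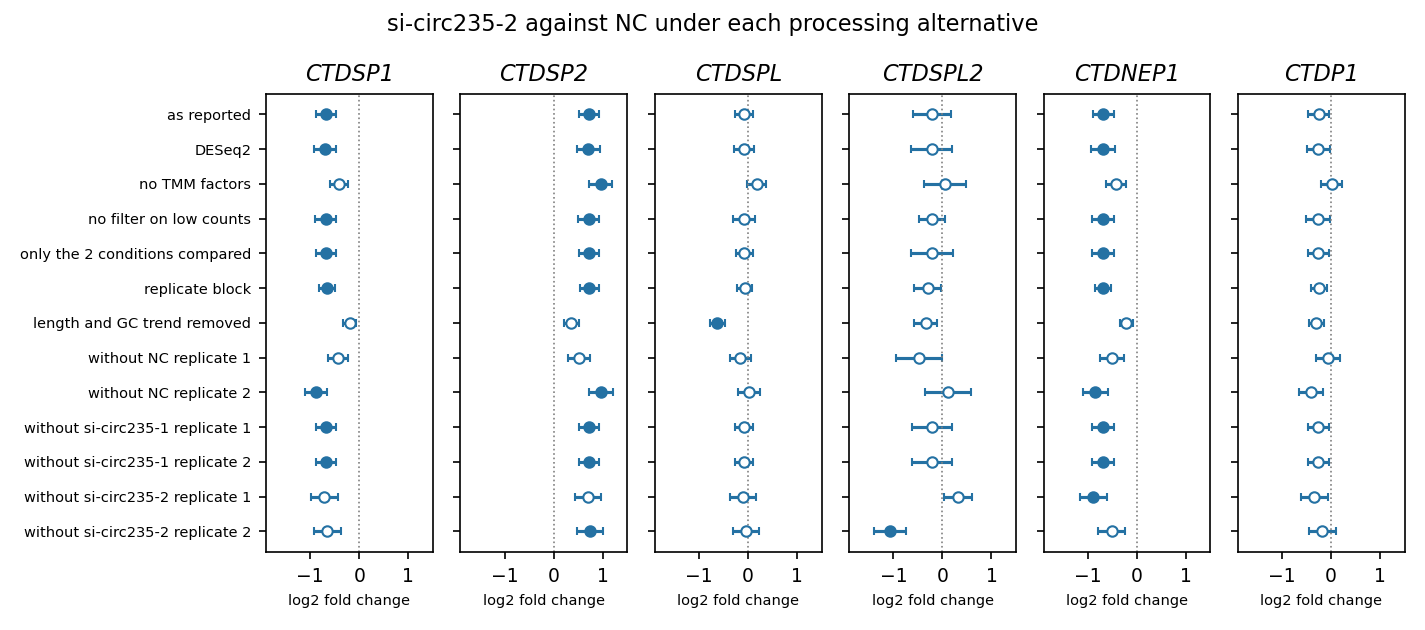
Log2 fold change of each member in si-circ235-2 against NC (horizontal axis) with its standard error, as reported and under 12 alternatives (rows). Filled points have an adjusted p under 0.05. Those of CTDSP1 share the NC libraries by which it was chosen and are a description. CTDSP1, CTDSP2 and CTDNEP1 keep their sign in every row but are unfilled after removal of the length and GC trend, where they lie at -0.20, 0.36 and -0.21, and without replicate 1 of NC.

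The genes whose pattern was most like that of CTDSP1 were found by the root mean square difference of log2 CPM, centred on the NC mean, over the 6 libraries and 10377 candidates with a mean of at least 5 CPM. They were ZNF385A (0.14), ZNF880 (0.14), RRNAD1 (0.17), GIPC1 (0.17) and SLC37A4 (0.18). GIPC1 had 155 and 103 CPM in NC, 37.9 and 42.2 with si-circ235-1 and 74.2 and 65.8 with si-circ235-2. ZNF385A had 32.6 and 20.5, 10.5 and 10.1, and 15.1 and 14.7 CPM in the same order. By the same measure the member nearest to CTDSP1 was CTDP1 at 0.76, and the farthest was CTDSP2 at 1.28. The distances from CTDSP1, of these members and of the genes above, carry the fall by which CTDSP1 was selected. They are a description, and nothing is read from them about the family. CTDNEP1 and CTDP1 were the members most like each other, at 0.27.

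The libraries were checked against the label of the cells. Of 16 epithelial and urothelial markers, 7 had a mean of at least 1 CPM, among them KRT18 (1780 ± 518 CPM in NC), the most abundant over the 6 libraries, KRT8 (1851 ± 439) and KRT7 (1098 ± 223), keratins of simple epithelia. KRT20 and UPK3A, markers of differentiated urothelium, were at 0, and the epithelial cadherin CDH1 was at 0.22 ± 0.06 CPM in NC. The mesenchymal filament gene VIM was abundant at 756 ± 127 CPM. The summed level of the epithelial list was 5596 and 3926 CPM in NC, 4635 and 4313 with si-circ235-1 and 3699 and 3114 with si-circ235-2, and that of 4 mesenchymal markers was 889 and 719, 1208 and 1535, and 780 and 622. PPARG, a regulator of urothelial differentiation, rose under both siRNAs (0.90 for si-circ235-1 and 1.13 for si-circ235-2). It was the 1 epithelial marker of 8 tested that was called with si-circ235-1. With si-circ235-2, KRT7 fell by 0.76 and the mesenchymal genes FN1 (1.39) and CDH2 (0.90) rose. After removal of the length and GC trend FN1 was still called (0.78), whereas KRT7 (-0.03, adjusted p = 0.903 from edgeR) and CDH2 (0.38, adjusted p = 0.275) were not. VIM had 0.82 (adjusted p = 0.0691) with si-circ235-1 and -0.39 (adjusted p = 0.241 from edgeR) with si-circ235-2, and after the trend was removed it was called higher with si-circ235-1 (0.86, adjusted p = 0.0247). FN1 had -0.52 (adjusted p = 0.122 from edgeR) with si-circ235-1, and was called lower there after the trend was removed (-0.62, adjusted p = 0.0393). Markers of blood, endothelial and liver cells summed to 0.48 CPM at most in any library, with PTPRC, CD3E and ALB at 0. The part of these shifts in the members' values was not tested.

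The genes that work with or against the family were described from lists. Here the median log2 fold change of a list is given beside that of all tested genes, which was -0.03 with si-circ235-1 and -0.00 for si-circ235-2. A range after a median spans 12 alternatives in processing, of which the one without TMM factors moved the median of all genes to -0.11 and 0.25. The calls of a list stand beside those over all tested genes, 2.24% higher and 3.64% lower with si-circ235-1 (5.88% in all), and 15.7% in each direction with si-circ235-2 (31.4% in all). Without replicate 2 of si-circ235-1, edgeR called 0 genes in si-circ235-1 against NC (2110 had an unadjusted p under 0.05). That fit has a lone si-circ235-1 library, taken to vary like the other groups, and CTDSP1, for one, kept a value of -1.46 in it. For si-circ235-1 against NC, removal of the length and GC trend raised the calls over all genes from 847 to 1967. With si-circ235-2 that setting took them from 4530 to 3727. The shares given above are those before removal of the trend. With si-circ235-1 the trend-removed calls were 1 higher and 1 lower among the CTD kinases, and 1 and 2 among the other CTD factors. They were 1 and 0 for REST and its corepressors, and 3 and 2 for the genes around CTDNEP1. Nearest to the members are UBLCP1, a phosphatase that acts on the proteasome, and TIMM50, a subunit of the mitochondrial import machinery, which share the catalytic domain of CTDP1. Neither was called with si-circ235-1, and both fell with si-circ235-2. Only 1 of them was called there without TMM factors, and only 1 with the 2 conditions alone. TIMM50 went from 256 ± 55.0 to 119 ± 16.8 CPM (log2 fold change -1.10, standard error 0.21, adjusted p = 0.00460 from edgeR) and UBLCP1 from 42.1 ± 0.58 to 20.8 ± 10.5 (-1.01, 0.31, adjusted p = 0.0312). TIMM50 had -1.02 (adjusted p = 0.00580 from edgeR) after removal of the length and GC trend, and UBLCP1 -0.63 (adjusted p = 0.0521). Without replicate 1 of NC neither was called, at -0.87 (adjusted p = 0.0525 from edgeR) for TIMM50 and -1.005 (adjusted p = 0.148) for UBLCP1. UBLCP1 had 227 and 590 counts with si-circ235-2, and its value was -0.58 (adjusted p = 0.130 from edgeR) without replicate 1 and -1.65 without replicate 2 of that siRNA. It was also not called without replicate 2 of NC (-1.02, adjusted p = 0.0672).

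Among 14 kinases and partners that phosphorylate the CTD, 4 rose and 2 fell with si-circ235-2, with a median of 0.26 (0.15 to 0.51). The called share was 42.9%, beside 31.4% of all genes. CDK12, a kinase of elongating polymerase, rose from 40.5 ± 2.63 to 115 ± 2.16 CPM (log2 fold change 1.504, standard error 0.18, adjusted p = 0.00179 from edgeR), with its relative CDK13 (0.88), the cyclin CCNT1 (1.37) and the Mediator subunit MED12 (0.90). The cyclins CCNH and CCNC fell by 0.76 and 0.75. Without TMM factors the list had 4 higher and 0 lower calls, so neither fall was called there. CDK7, which opens the phosphorylation cycle at initiation, had -0.01 (adjusted p = 0.986) and CDK9, the partner of CCNT1, 0.14 (adjusted p = 0.635 from edgeR). After the trend was removed 3 were higher (CCNT1 at 0.93, CDK12 at 0.78 and MED12 at 0.48) and 1 lower (CCNC at -0.47), while CDK13 (0.09, adjusted p = 0.736 from edgeR) and CCNH (-0.11, adjusted p = 0.602) were not called, and without replicate 1 of NC 2 were higher and 0 lower. In si-circ235-1 the median was 0.06 (-0.02 to 0.14), and the 1 call was CCNK, named after its values were seen, at 0 and 2 counts against 8 and 30 in NC. That call did not hold in every setting, and was lost, for one, when only the 2 conditions were compared. Over the 12 alternatives the list had 0 to 1 lower calls with si-circ235-1.

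Of 17 other CTD phosphatases and CTD-binding factors, 0 were called by edgeR with si-circ235-1 (median -0.29, range -0.34 to -0.04; DESeq2 called 2, and 8 had an unadjusted p below 0.05), while 5 rose and 4 fell with si-circ235-2 (median -0.27, range -0.28 to -0.01), 52.9% of the list beside 31.4% of all genes. SCAF8 (1.33) and RPRD2 (1.21), which bind the phosphorylated CTD, rose, as did RPRD1B, SCAF4 and PCF11. Among those that fell, PPP1CB, a catalytic subunit of protein phosphatase 1, fell by 1.05 on the log2 scale, with PPP1CA and SCAF1 also lower. SSU72, another CTD phosphatase, had 316 ± 56.1 CPM in NC, 380 ± 23.2 for si-circ235-1 and 217 ± 24.3 for si-circ235-2. It was not called against NC (-0.54, adjusted p = 0.0627 from edgeR, with si-circ235-2), but was called lower after removal of the length and GC trend (-0.77, adjusted p = 0.0148). The split with si-circ235-2 turned to 1 higher (SCAF8, 0.72) and 5 lower after removal of the trend, where RPRD2 (0.48), RPRD1B, SCAF4, PCF11, PPP1CA and SCAF1 were not called and the median was -0.04, and to 0 higher and 1 lower without replicate 1 of NC.

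POLR2A, the subunit that carries the CTD, had 218 ± 17.6 CPM in NC, 125 ± 23.6 for si-circ235-1 and 377 ± 7.46 for si-circ235-2. With si-circ235-1 it fell by 0.81 on the log2 scale (standard error 0.20, adjusted p = 0.0408 from edgeR). With si-circ235-2 it rose by 0.79 (0.20, adjusted p = 0.0129 from edgeR). Between the siRNAs the difference was 1.59 (0.20, adjusted p = 0.000593 from edgeR). Both calls held after removal of the length and GC trend (-0.61, adjusted p = 0.0180, and 0.44, adjusted p = 0.0339 from edgeR). Of the 20 tested genes for polymerase subunits, elongation factors and TFIIF, POLR2A was the 1 called with si-circ235-1 (median -0.05, range -0.13 to -0.01), and without any 1 of the 4 libraries compared edgeR called 0 of the list there. After the trend was removed 4 others were called higher there, POLR2I (1.03), POLR2H (0.63), POLR2C (0.52) and NELFB (0.50). In that setting the calls over all genes rose from 847 to 1967. In si-circ235-2, 3 rose and 9 fell (median -0.50, range -0.59 to -0.23), and 3 were higher and 7 lower after the trend was removed. The called share was 60.0%, beside 31.4% of all genes, and the rises were near the 15.7% of all genes. POLR2B and POLR2D rose with POLR2A, and POLR2D stood at 0.29 (adjusted p = 0.149 from edgeR) after the trend was removed. The small subunits POLR2L, POLR2G and POLR2J fell by 2.34, 1.59 and 1.38, and NELFE, a subunit of the pausing factor NELF, by 1.19. With the trend removed POLR2L stood at -1.58, and POLR2H (-0.38, adjusted p = 0.103 from edgeR) and POLR2I (-0.21, adjusted p = 0.607) were not called. Without replicate 1 of NC, 0 were higher and 3 lower with si-circ235-2, so neither call of POLR2A held there, although its values, -0.89 and 0.70, were about as large.

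REST and 12 corepressors gave 0 calls from edgeR with si-circ235-1 (median 0.10, range -0.12 to 0.14). DESeq2 called 1 there, and 1 had an unadjusted p below 0.05 from edgeR. With si-circ235-2 there were 3 rises (median 0.24, range 0.03 to 0.50), and the called share was 23.1%, beside 31.4% of all genes. RCOR1, PHF21A and SIN3A rose by 0.75, 0.72 and 0.69, and none was called higher after the trend was removed or without replicate 1 of NC. With the trend removed HDAC2, a histone deacetylase, was called lower (-0.78, adjusted p = 0.0157 from edgeR). REST had 21.0 ± 1.10 CPM in NC, with log2 fold changes of 0.54 (adjusted p = 0.226) and 0.27 (adjusted p = 0.468 from edgeR) with si-circ235-1 and si-circ235-2. Of 25 neuronal genes listed as repressed by REST, most were too low to test, with STMN2, SNAP25 and SYN1 at 0 in every library. The 11 tested were not all low, with STMN3 at 505 ± 70.6 CPM in NC. Whether REST represses them in these cells was not tested. In si-circ235-1, 0 rose and 3 fell (median -0.42, range -0.50 to -0.28), namely the synaptic vesicle gene SYP (-1.21), CELSR3 (-0.9985) and GRIN1, which had 4.06 ± 2.80 CPM in NC and was named after its values were seen. In si-circ235-2, L1CAM, an adhesion molecule, rose from 78.3 ± 5.35 to 274 ± 13.1 CPM (1.81, adjusted p = 0.00179 from edgeR), while SYP (-1.39), VGF (-0.85) and STMN3 (-0.78) fell (list median -0.10, range -0.18 to 0.15). The called share with si-circ235-2 was 36.4%, near the 31.4% of all genes. The calls with si-circ235-2 were 2 higher and 1 lower without TMM factors. Without replicate 1 of NC, 0 were called with si-circ235-1, and 1 was higher and 0 lower with si-circ235-2, where removal of the trend left 1 higher (L1CAM, 1.75) and 1 lower (SYP, -1.02), with VGF at 0.07 (adjusted p = 0.821 from edgeR) and STMN3 at -0.15 (adjusted p = 0.397).

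SMAD proteins, whose linkers the small phosphatases act on, and BMP or TGF-beta targets formed a list of 14. In si-circ235-1, 2 rose and 0 fell (median -0.13, range -0.24 to 0.30), and edgeR called 0 without any 1 of the 4 libraries compared. The 2 genes were the TGF-beta target TGFBI, from 5.07 ± 0.78 to 11.9 ± 0.52 CPM (log2 fold change 1.22, adjusted p = 0.0231 from edgeR), and the BMP target ID1, from 285 ± 71.1 to 583 ± 80.2 CPM (1.03, adjusted p = 0.0295). In si-circ235-2, 4 rose and 2 fell (median 0.10, range -0.21 to 0.35), 42.9% of the list beside 31.4% of all genes. SMAD1 (1.34), TGFBI (1.04) and SMAD3 (0.70, adjusted p = 0.0236 from edgeR) were among those that rose, and ID1 (-1.17, at 126 ± 17.6 CPM) and ID3 fell. SMAD1 had 44 and 129 counts in NC, and its value was 0.78 (adjusted p = 0.189 from edgeR) without replicate 1 and 2.25 without replicate 2 of NC. Between the siRNAs ID1 differed by -2.21 (0.24, adjusted p = 0.000418 from edgeR). SMAD2 had 0.32 (adjusted p = 0.301) and 0.46 (adjusted p = 0.0796 from edgeR). Without replicate 1 of NC no gene of this list was called in either comparison, and after the trend was removed SMAD3 (0.11, adjusted p = 0.571 from edgeR), TGFBI (0.58, adjusted p = 0.0647) and ID3 (-0.34, adjusted p = 0.196) were not called with si-circ235-2, and ID1 stood at -0.56, with a list median of -0.21. Of 7 other reported substrates, 6 were tested and 0 were called by edgeR in either comparison, with medians of -0.11 (-0.38 to 0.13) and -0.03 (-0.20 to 0.21), RB1 and AKT1 among them. DESeq2 called 0 of these with si-circ235-1 and 2 with si-circ235-2, and 2 had an unadjusted p below 0.05 in each. Removal of the trend gave 1 higher call with si-circ235-1, where calls over all genes rose from 847 to 1967. It gave 2 lower calls with si-circ235-2, where they went from 4530 to 3727.

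For CTDNEP1 the neighbours are its partner, the lipins and genes of the nuclear envelope and of lipid synthesis, 16 in all. In si-circ235-1, 1 rose and 2 fell (median 0.13, range 0.04 to 0.20), which were CDS2 (0.79), LPIN3 (-1.32) and EMD (-1.05), and 0 were called without replicate 1 or without replicate 2 of NC. In si-circ235-2, 4 rose and 4 fell (median 0.11, range -0.27 to 0.36), a share of 50.0% beside 31.4% of all genes. CNEP1R1, the partner that CTDNEP1 needs, rose from 23.8 ± 5.03 to 40.0 ± 0.35 CPM (log2 fold change 0.75, adjusted p = 0.0233 from edgeR), where CTDNEP1 fell. LPIN1, a phosphatidic acid phosphatase, rose from 23.7 ± 3.96 to 51.4 ± 3.62 CPM (1.11, adjusted p = 0.00453 from edgeR), as did LPIN2 (0.76) and LMNB1. BANF1 (-1.65), EMD (-1.24), DGAT1 (-1.16) and LMNA fell. After the trend was removed, 2 were higher and 6 lower, with LPIN1 at 0.46 (adjusted p = 0.0719 from edgeR) and LPIN2 at 0.11 (adjusted p = 0.680), and CDS2 called lower (-0.61), and the median turned to -0.27. Without replicate 1 of NC 0 were higher and 1 lower, with LMNB1 at 0.44 (from 0.74) and LMNA at -0.47 (from -0.75).

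The last list held 18 targets reported for the miR-26 family, of which 17 were tested. In si-circ235-1, 3 rose and 0 fell, with a median of 0.30, which was 0.16 without replicate 1 and 0.49 without replicate 2 of NC. GSK3B, a kinase of glycogen and Wnt signalling, rose from 44.6 ± 7.12 to 98.2 ± 7.18 CPM (log2 fold change 1.14, standard error 0.19, adjusted p = 0.0120 from edgeR). The cyclin CCND2 rose from 7.42 ± 0.48 to 14.5 ± 0.24 CPM (0.97, 0.24, adjusted p = 0.0442 from edgeR). In si-circ235-2, 5 rose and 1 fell, with a median of 0.33, which was 0.03 without replicate 2 of si-circ235-2 and 0.64 without replicate 1. The called share of 35.3% was near the 31.4% of all genes. TET3 (1.80), GSK3B (1.43, at 120 ± 4.65 CPM), SMAD1 (1.34), LOXL2 (0.70) and HMGA2 (0.63) rose and CCNE1 (-0.62) fell. CCND2 had 0.02 (adjusted p = 0.958 from edgeR) there. After removal of the length and GC trend CCND2 was called lower with si-circ235-2 (-0.67, adjusted p = 0.0414 from edgeR), and HMGA2 was no longer called (0.33, adjusted p = 0.184). EZH2, a target often cited for miR-26, had -0.06 (adjusted p = 0.871) and -0.04 (adjusted p = 0.901 from edgeR). Without replicate 1 of NC no gene of the list was called with si-circ235-1, and 2 were called higher with si-circ235-2. The level of miR-26 was not measured here, and both comparisons share the NC libraries.

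**Figure D5:**
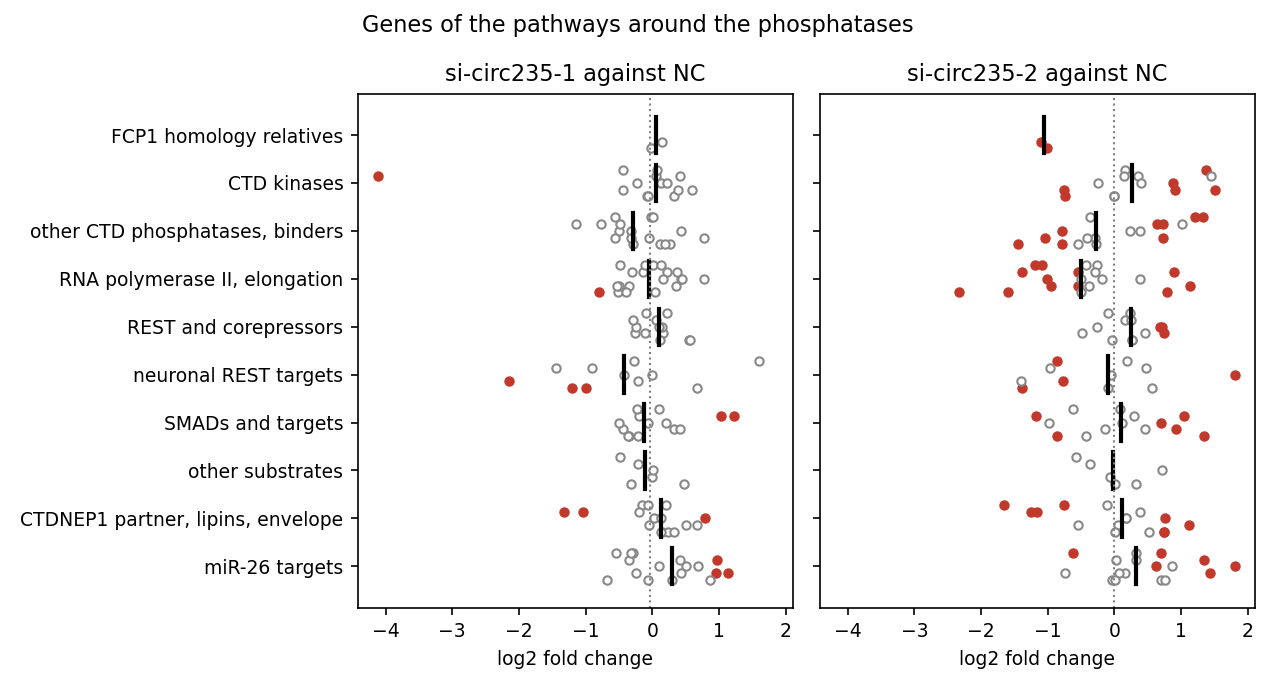
Log2 fold changes (horizontal axis) of the tested genes of each list with si-circ235-1 and si-circ235-2 against NC. Red points are called by edgeR, black bars are list medians and the dotted line is the median of all tested genes. The point at the far left for si-circ235-1 is CCNK, at 0 and 2 counts. The list of polymerase genes has 3 higher and 9 lower calls with si-circ235-2 and 1 call, POLR2A, with si-circ235-1.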

How the data were processed

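The authors deposited raw read counts per gene, whole numbers without normalization, for 58288 Ensembl identifiers in 6 libraries, and all columns were matched to samples by name. The submitters' processing notes name FastQC, cutadapt, STAR and hg38, without versions. For the counting tool and annotation, the sources used here gave none. Libraries were not strand-specific, so reads of overlapping genes cannot be told apart.

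These deposited counts were fitted with edgeR 4.0.16 under R 4.3.3, using filterByExpr and TMM and 1 mean per condition. The quasi-likelihood p-values of 14415 genes were adjusted by Benjamini-Hochberg, with a threshold of 0.05. The study's methods state no test per gene for these counts, and the gene set analysis they name was not run here. With 2 libraries against 2, an exact two-sided permutation test cannot go below p = 0.333, so only the fit across all genes was used. Its p-values set a difference between condition means against the spread between libraries. That spread is estimated over all 3 conditions and with the help of the other genes. Replicates differed by more than sampling noise (chi-square per degree of freedom 33.3 for NC, 26.2 for si-circ235-1, 21.7 for si-circ235-2). Gene names, lengths, UTRs and loci came from GENCODE release 29 (GRCh38), which held 58025 of the identifiers, and microRNA sequences from RefSeq.

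Members and lists were chosen with earlier results of these data known. Named genes were the members, fixed partners, genes that overlap a member, the 5 genes most like CTDSP1 and, per list and comparison with NC, up to 4 called genes with the largest change and a mean of at least 5 CPM. Other genes named were chosen after their values were seen. Some genes counted in the lists are not reported by name here. The alternatives tried were DESeq2 1.42.0, library totals alone, all genes with a count, fits of the compared conditions only, a replicate block, leaving out each library, the median transcript length, and taking out a trend over the length and GC content of transcripts (splines with 5 degrees of freedom). The edgeR comparisons were tested on simulated data. The outcome is not given here, and no call rests on it.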

Additional observations from a re-analysis of the deposited data

Results flagged for a closer look

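CTDSP2 differed between the siRNAs. Its log2 difference, si-circ235-2 minus si-circ235-1, was 0.56 (adjusted p = 0.0461 from edgeR), with both si-circ235-2 libraries above both si-circ235-1 libraries. The comparison itself was tested, and the call was lost under several settings, given with the result and below.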

How the results depend on the processing

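In si-circ235-1 against NC, 847 genes were called, and the count was 1519 with DESeq2, 1678 without a filter on low counts, 1642 with the 2 conditions alone, 1967 after removal of the length and GC trend, and 0 to 1482 when 1 library was left out (0 without replicate 2 of si-circ235-1, 74 without replicate 1 of NC). In si-circ235-2 against NC, 4530 genes were called, and 769 to 4240 with 1 library left out, the fewest without replicate 1 of NC. Between the siRNAs, 5725 were called, and 2817 to 5558 with 1 library left out, the fewest without replicate 2 of si-circ235-1. Of the 5 members other than CTDSP1, 2 were called in si-circ235-2 against NC, 1 without TMM factors, 1 after the trend was removed and 0 to 2 with 1 library left out. Between the siRNAs 1 was called, 0 with DESeq2 and 0 to 1 with 1 library left out. Without TMM factors the median of all genes moved to -0.11 with si-circ235-1, 0.25 with si-circ235-2 and 0.37 between the siRNAs, and relative to it CTDSP1 stayed lower and CTDSP2 higher in si-circ235-2. The replicate numbers were not taken to pair the samples, since the 2 deviations correlated at -0.09 (NC and si-circ235-1), 0.15 (NC and si-circ235-2) and 0.14 (the siRNAs). With the replicate block, 937, 4750 and 6043 genes were called, and between the siRNAs CTDSP2 had 0.56 (adjusted p = 0.05045 from edgeR) and CTDNEP1 -0.54 (adjusted p = 0.0273). With 2 libraries per condition, differences of members at the levels reported are limited by the spread between libraries more than by depth.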
